A study of Mus musculus with 2 samples.

Results

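Brca1, Brca2 and 7 other genes of homologous recombination and its signalling were followed in cycling and non-cycling mammary epithelial cells of mice at 18.5 days of pregnancy. They were Brca1, Brca2, Bard1, Palb2, Rad51ap1, Trp53, Atm, Chek1 and Fancd2, which were taken by name as 9 of the 27179 features in the files. The Ehf_KO library came from mice lacking Ehf, an epithelial transcription factor of the ETS family, and the WT library from wild type mice. Each was 1 pool of the glands of 2 adult females at 18.5 days of pregnancy, sorted as Ter119-, CD31- and CD45- and captured with a 3' droplet kit. The labels say neither which part of Ehf was deleted nor in which cells, and give no strain background. With 1 library per genotype there was no replicate and no test, so every interval here is a 95% interval that covers counting error only.

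Homologous recombination mends broken DNA by copying an intact sister strand, and so works in cells that have replicated their DNA. Brca1 pairs with Bard1 and, through Palb2, brings Brca2 to the break, and Rad51ap1 is an accessory factor of the repair. Atm senses double-strand breaks, Chek1 halts the cycle when replication stalls, Fancd2 marks DNA crosslinks for repair, and Trp53 encodes p53, the tumour suppressor that these signals activate. In humans, inherited loss of BRCA1 or BRCA2 raises the risk of breast cancer, and the luminal progenitors of the gland are often studied as its cells of origin.

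The promoters of Brca1, Brca2, Bard1 and Rad51ap1, which were higher in cycling cells of both classes, are shown beside that of Trp53, whose ratios between the states were smaller. The stretches are RefSeq sequence of GRCm38.p6, from 250 bases before to 50 bases after the start used in the RefSeq promoter table, on the strand of the gene, and 8 of the 9 genes were in the table. That start is the outermost annotated start for Brca1, and lies inside the annotated gene by 324 bases for Brca2, 169 for Bard1, 34 for Rad51ap1 and 11 for Trp53, so the Brca2 stretch lies wholly within the gene. Capitals mark the E2F-type motifs GCGGGAA and GGCGCCAA, the cell cycle homology motif TTTGAA and the CCAAT box, each searched on both strands. The stretches are chr11:101551906-101552205 (minus strand) for Brca1, chr5:150522371-150522670 (plus) for Brca2, chr1:71102923-71103222 (minus) for Bard1, chr6:126939538-126939837 (minus) for Rad51ap1 and chr11:69580109-69580408 (plus) for Trp53.
Brca1: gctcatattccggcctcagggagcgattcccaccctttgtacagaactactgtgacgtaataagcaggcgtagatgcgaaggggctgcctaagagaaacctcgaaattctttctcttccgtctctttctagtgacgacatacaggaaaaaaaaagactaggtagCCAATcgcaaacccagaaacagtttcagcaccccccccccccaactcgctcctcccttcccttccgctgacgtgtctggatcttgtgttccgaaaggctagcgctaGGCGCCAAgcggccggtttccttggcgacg
Brca2: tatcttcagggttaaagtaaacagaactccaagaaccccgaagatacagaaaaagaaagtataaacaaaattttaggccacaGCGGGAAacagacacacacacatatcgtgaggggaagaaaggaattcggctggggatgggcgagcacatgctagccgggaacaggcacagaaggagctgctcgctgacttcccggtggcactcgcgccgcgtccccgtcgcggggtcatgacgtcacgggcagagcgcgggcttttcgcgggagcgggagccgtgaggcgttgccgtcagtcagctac
Bard1: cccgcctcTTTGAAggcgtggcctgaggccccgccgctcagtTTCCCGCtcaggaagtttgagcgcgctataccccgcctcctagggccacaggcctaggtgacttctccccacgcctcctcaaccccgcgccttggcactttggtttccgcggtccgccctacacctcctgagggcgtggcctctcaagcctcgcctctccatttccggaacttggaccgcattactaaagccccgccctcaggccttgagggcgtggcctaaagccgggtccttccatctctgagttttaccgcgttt
Rad51ap1: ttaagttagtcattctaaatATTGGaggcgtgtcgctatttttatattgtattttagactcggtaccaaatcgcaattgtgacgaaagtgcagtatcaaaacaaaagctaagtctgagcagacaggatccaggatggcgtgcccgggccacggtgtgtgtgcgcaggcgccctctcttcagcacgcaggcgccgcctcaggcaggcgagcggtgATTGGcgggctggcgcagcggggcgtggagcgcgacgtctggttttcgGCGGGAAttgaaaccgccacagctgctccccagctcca
Trp53: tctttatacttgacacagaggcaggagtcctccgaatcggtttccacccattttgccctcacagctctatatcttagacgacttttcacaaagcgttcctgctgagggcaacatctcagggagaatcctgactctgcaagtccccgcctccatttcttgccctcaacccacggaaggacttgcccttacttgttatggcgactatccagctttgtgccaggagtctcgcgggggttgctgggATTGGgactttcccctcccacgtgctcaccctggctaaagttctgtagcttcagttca
The motif GCGGGAA was in 5 of the 8 promoters (Brca2, Bard1, Rad51ap1, Atm and Chek1), against 4.60% of all 32851 promoters in the table. GGCGCCAA was in that of Brca1 alone among the 8, against 0.816% of all. TTTGAA was in that of Bard1, against 17.9% of all, and CCAAT was in 5 of the 8, against 37.4% of all. No matches overlapped in the 5 stretches shown. The motifs were chosen with these promoters in view, and a match is a run of letters, not a site shown to be bound.

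A cell was called cycling when it held at least 3 unique molecular identifiers (UMIs, 1 per captured transcript) summed over 8 mitotic genes, namely Cenpf, Ube2c, Nusap1, Birc5, Ccnb1, Cdk1, Top2a and Mki67. The 6619 kept Ehf_KO cells and 9209 kept WT cells shared 15 barcodes. Clusters named from markers gave 862 Ehf_KO and 2628 WT luminal secretory cells (alveolar-like and luminal progenitor-like), 5546 and 6280 basal cells, 148 and 123 hormone-sensing cells, and 63 and 178 non-epithelial cells. Most Ehf_KO luminal secretory cells (621) lay in the luminal progenitor-like cluster 7, which held 105 WT cells. Most WT cells lay in the alveolar-like clusters 4 and 5 (1347 and 907), which held 21 and 138 Ehf_KO cells. Ehf itself had 672 UMIs in Ehf_KO and 1060 in WT cycling luminal cells, and 419 and 2281 in non-cycling ones, log2 ratios of -1.42 and -0.93. A 3' tag outside the deleted part would check nothing.

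Levels are UMI counts divided by the total of their group (CPM), put on 1 common scale over the 8 groups of luminal or basal, cycling or non-cycling, Ehf_KO or WT cells (scaled CPM). On plain CPM the median log2 ratio of all genes, Ehf_KO over WT, would be 0.69 in cycling and 0.78 in non-cycling luminal cells, and 0.00 in both basal groups. Milk protein genes held 9.20% of UMIs in Ehf_KO and 36.9% in WT cycling luminal cells, and 12.7% and 39.6% in non-cycling ones. In these data fewer expressing cells and less RNA per cell cannot be told apart within a sum. The 3' counts are not set against each other between genes.

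Cycling cells were a larger share of the luminal class in the Ehf_KO library than in the WT library. They made up 43.0% of luminal secretory cells in Ehf_KO (371 of 862, 39.7 to 46.4%) and 17.4% in WT (456 of 2628, 15.9 to 18.9%). Thinned to 2000 UMIs per cell, these shares were 22.8% of the 808 Ehf_KO cells and 5.85% of the 2495 WT cells that were deep enough. Thinning evened total UMIs, of which milk protein genes held more in WT, so depth outside those genes stayed unequal. At a finer clustering (Leiden resolution 2), where a cluster mostly of Ehf_KO cells stayed unnamed, the cycling shares were 26.4% in Ehf_KO and 17.0% in WT. In basal cells the shares were 3.34% in Ehf_KO (185 of 5546) and 3.31% in WT (208 of 6280). After thinning they were 2.53% of 5330 Ehf_KO cells and 5.335% of 3318 WT cells. The basal shares lay within counting error of each other before thinning. The Ehf_KO share was the lower at 2000 UMIs, when many shallow WT cells were left out. Thinned to 1000 UMIs, which left out no basal cell, the shares were 1.88% in Ehf_KO and 2.50% in WT, with overlapping intervals. Overlap alone does not place these shares within counting error of each other. Median depths were 17562 UMIs in Ehf_KO and 14612 in WT cycling luminal cells, 7200 and 8074.5 in non-cycling luminal cells, 7077 and 3777 in cycling basal cells, and 3623 and 2018.5 in non-cycling basal cells.

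**Figure D1:**
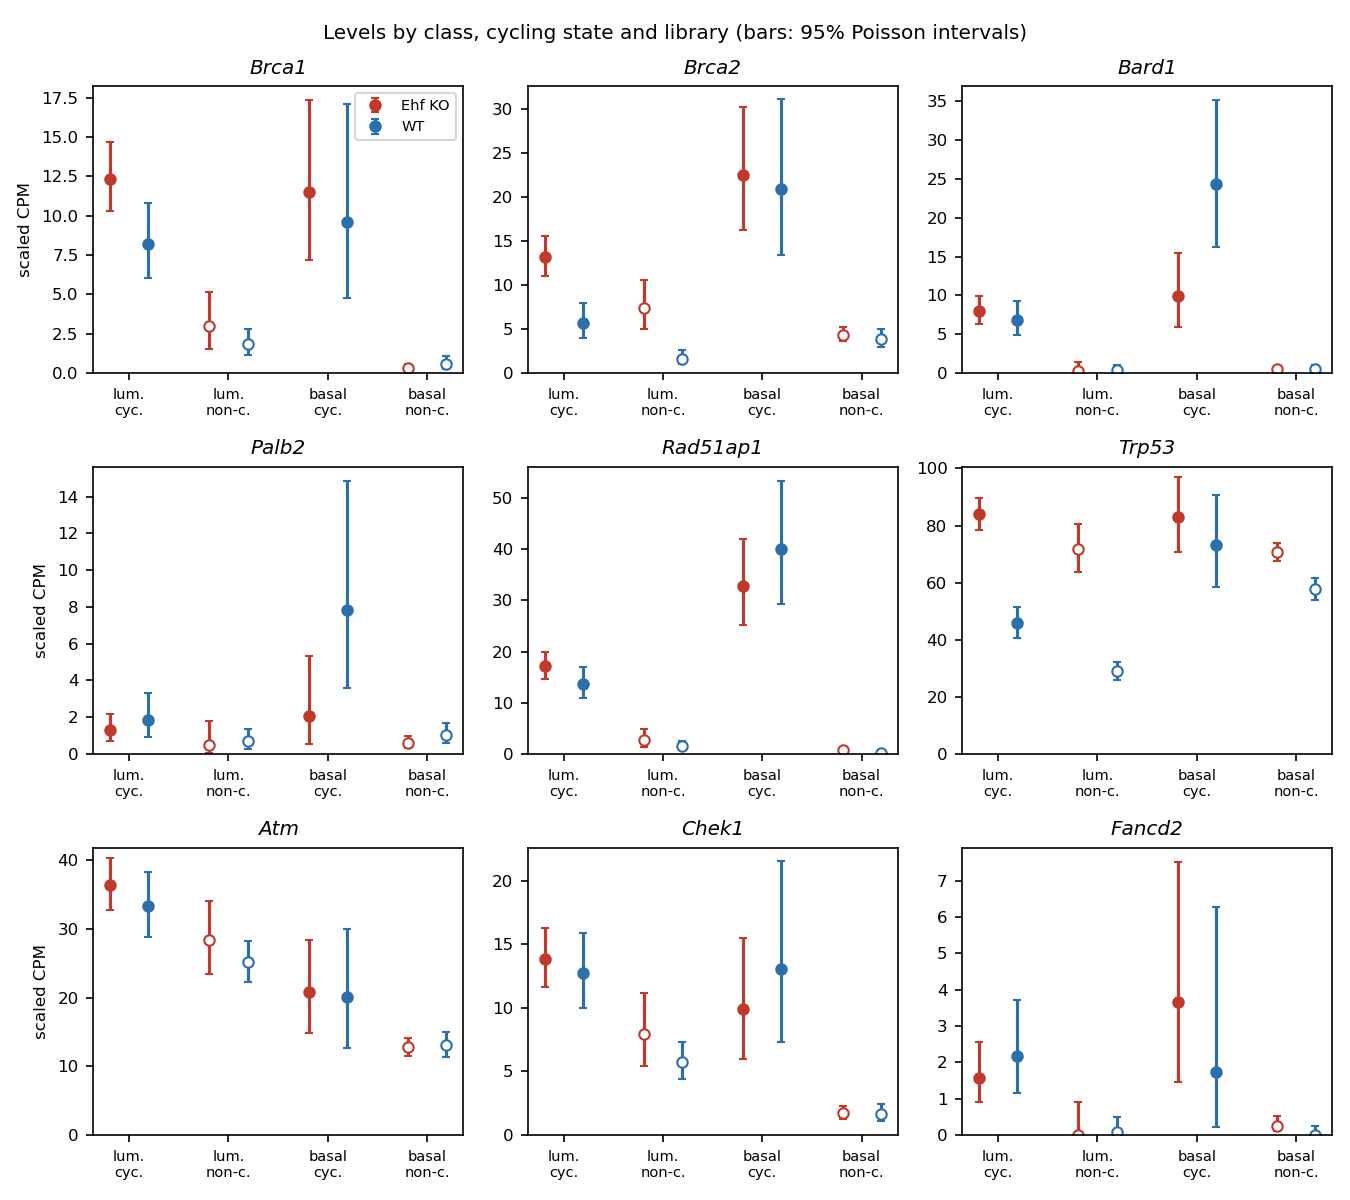
Scaled CPM of the 9 genes (y axis) in luminal secretory (lum.) and basal cells, cycling (cyc., filled) and non-cycling (non-c., open), in Ehf_KO (red) and WT (blue), with 95% Poisson intervals. Brca1, Bard1 and Rad51ap1 lie near 0 in non-cycling cells and well above it in cycling cells of both classes, while Trp53 and Atm are present throughout.

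Most of the 9 genes were higher in cycling than in non-cycling cells, in both classes and both libraries. Counted at 1.5-fold (a threshold of size, with no test), 7 of 9 genes were higher in Ehf_KO luminal cells, where 6.74% of all genes tested were, and 8 of 9 in WT luminal cells, where 7.12% were. In basal cells 8 of 9 were higher in Ehf_KO and 7 of the 8 with a ratio in WT, against 10.2% of all genes in each. At least 50 UMIs over both states, the minimum for all genes tested, were held by 7 and 6 of the 9 genes in Ehf_KO and WT luminal cells, of which 5 in each were higher, and by 5 and 4 in basal cells, of which 4 and 3 were higher. None was lower, against 8.23% and 4.82% of all genes in Ehf_KO and WT luminal cells and 18.3% and 24.6% in basal cells. The median log2 ratio of the 9 genes was at least 1.09 in Ehf_KO luminal cells, where it falls on the lower bound of Fancd2, and 1.79 in WT luminal cells, and 2.54 and 2.95 in basal cells, where those of all genes were -0.07, -0.05, -0.14 and -0.20.

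Brca1, an E3 ligase subunit that promotes resection of broken ends, had 125 UMIs in cycling and 12 in non-cycling Ehf_KO luminal cells, and 49 and 21 in WT. Its level was 12.3 scaled CPM in cycling and 2.965 in non-cycling Ehf_KO luminal cells, and 8.195 and 1.82 in WT. In basal cells it was 11.5 and 0.296 scaled CPM in Ehf_KO, and 9.58 and 0.578 in WT. The log2 ratios were 2.06 (1.20 to 3.05) and 2.17 (1.41 to 2.98) in Ehf_KO and WT luminal cells, and 5.28 (4.06 to 6.66) and 4.05 (2.64 to 5.50) in basal cells. Few UMIs of Brca1 were seen in non-cycling basal cells, 8 UMIs in 5361 Ehf_KO and 9 in 6072 WT cells. Even those few may hold free RNA: RNA shared between droplets, bounded from 8 milk protein genes, could give up to 48.8% of that level in Ehf_KO and 21.25% in WT.

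Bard1, the partner that holds Brca1 stable, was scarce in non-cycling cells. It had 81 UMIs in cycling and 1 in non-cycling Ehf_KO luminal cells, and 41 and 5 in WT. The log2 ratios were 5.02 (2.50 to 10.3) in Ehf_KO and 3.98 (2.65 to 5.68) in WT luminal cells. In basal cells 19 against 14 UMIs in Ehf_KO and 28 against 9 in WT, in far fewer cycling cells, gave 4.26 and 5.40. The luminal ratios of both libraries depended on depth in the rule. With cycling called on cells thinned to 2000 UMIs, those in Ehf_KO were 1.275 for Bard1 (0.61 to 1.95), 0.73 for Brca1 and 0.77 for Rad51ap1. Those in WT were 2.40, 1.75 and 2.43. That rule called 184 Ehf_KO and 146 WT luminal cells cycling, so many cells called cycling without thinning were counted as non-cycling. Palb2, the bridge between Brca1 and Brca2, was sparse, with 13 and 2 UMIs in Ehf_KO luminal cells and 11 and 8 in WT. Its log2 ratios of 1.38 and 1.41 in luminal cells had intervals that included 0.

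Rad51ap1 had the highest ratios in basal cells. It was at 17.2 scaled CPM in cycling and 2.72 in non-cycling Ehf_KO luminal cells, and at 13.7 and 1.56 in WT. In basal cells it was at 32.9 and 0.740 in Ehf_KO and at 40.0 and 0.257 in WT, log2 ratios of 5.47 (4.73 to 6.28) and 7.29 (5.83 to 9.22). Free RNA could give up to 31.3% of the non-cycling basal level in Ehf_KO and 80.3% in WT, and those levels rest on 20 and 4 UMIs.

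Brca2, which acts at the break after Brca1 and Palb2, was detected in non-cycling as well as cycling cells. In basal cells it had 118 UMIs in non-cycling Ehf_KO and 60 in WT, levels of 4.36 and 3.85 scaled CPM, against 22.4 and 20.9 in cycling cells. The log2 ratios were 2.36 (1.82 to 2.88) and 2.44 (1.69 to 3.15). In luminal cells the ratio was 0.82 (0.24 to 1.45) in Ehf_KO and 1.79 (0.94 to 2.68) in WT. The difference between these intervals was not tested. Chek1, the replication checkpoint kinase, had ratios of 0.805 and 1.15 in Ehf_KO and WT luminal cells and 2.54 and 2.97 in basal cells.

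Fancd2 had 16 UMIs in cycling and 0 in non-cycling Ehf_KO luminal cells, and 13 and 1 in WT. With 3 counts as the floor of a zero sum, the Ehf_KO ratio was at least 2.13-fold, and WT gave 4.65 on the log2 scale (1.91 to 10.1). In basal cells 7 against 7 UMIs gave 3.82 in Ehf_KO, and no ratio was set for the 2 against 0 UMIs of WT. The antisense gene Fancd2os covers part of the last 1 kb of Fancd2 in the GRCm38.p6 annotation, and the counting is not stated to use strand. Trp53 and Atm had log2 ratios of 0.23 to 0.66 for Trp53 and 0.36 to 0.71 for Atm over the 4 settings of class and library. Trp53 passed the 1.5-fold threshold in WT luminal cells, and Atm in Ehf_KO and WT basal cells, where its WT interval included 0.

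**Figure D2:**
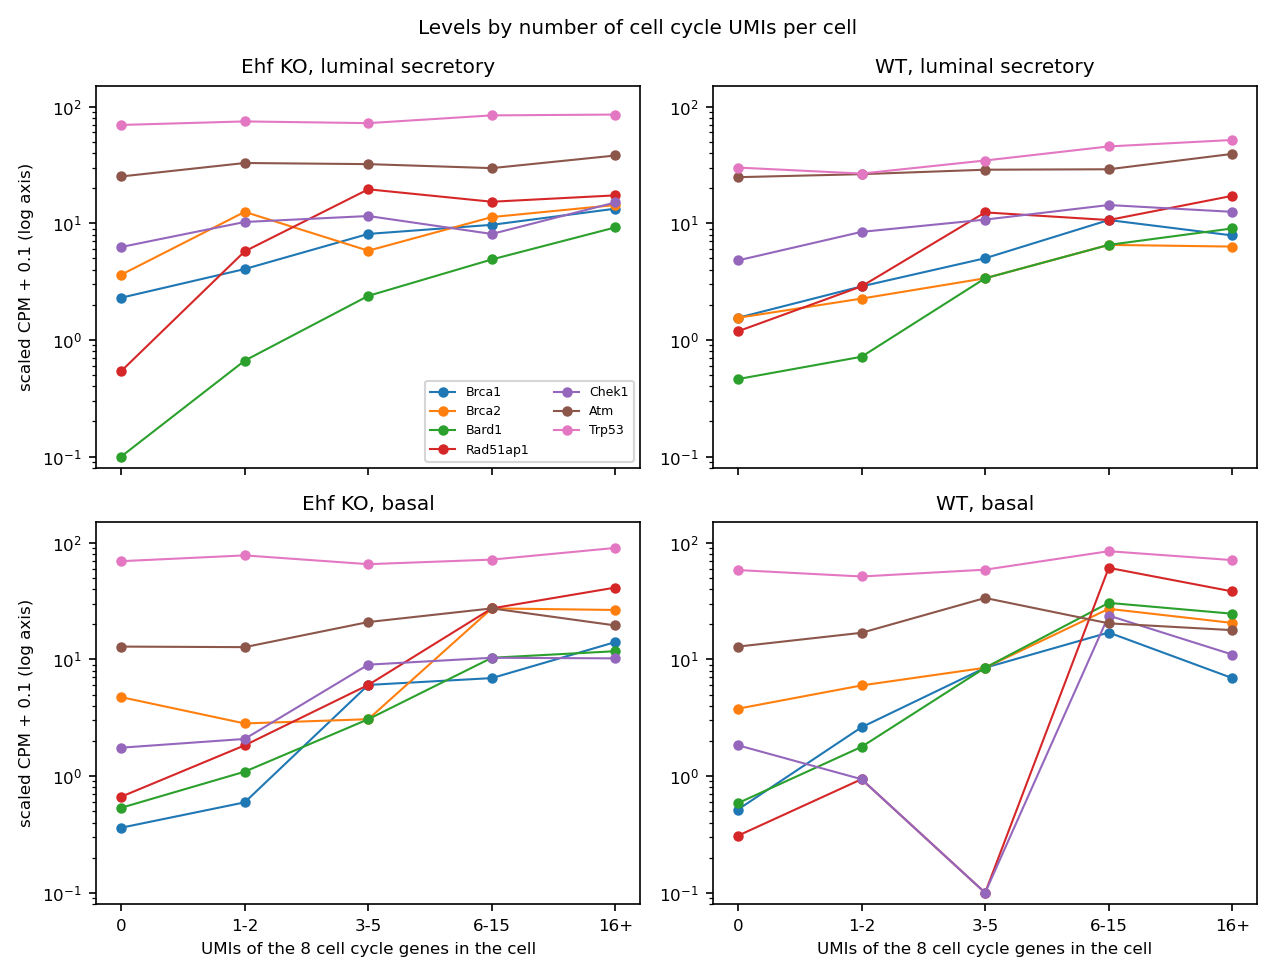
Scaled CPM plus 0.1 (log y axis) of 7 of the genes in cells binned by their UMIs of the 8 cell cycle genes (x axis), for Ehf_KO (left) and WT (right) luminal secretory (top) and basal (bottom) cells. Brca1, Bard1 and Rad51ap1 are higher in the bins from 6 UMIs upward than in the bins under 3 in each panel, while Trp53 is at 65.4 or more scaled CPM in every Ehf_KO bin.

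In Ehf_KO luminal cells Rad51ap1 was higher in cells with 1 or 2 cell cycle UMIs than in cells with none, below the threshold of the rule. It was at 0.440 scaled CPM (0.0111 to 2.45) in the 307 cells with no cell cycle UMI, 5.64 (2.71 to 10.4) in the 184 cells with 1 or 2, 19.4 in the 67 cells with 3 to 5, 15.2 in the 66 cells with 6 to 15, and 17.2 in the 238 cells with 16 or more. In WT luminal cells the same bins read 1.09, 2.78, 12.3, 10.55 and 17.1 scaled CPM, and the intervals of the first pair overlapped. Brca1 was at 2.20, 3.95, 7.999, 9.59 and 13.2 in the Ehf_KO bins and at 1.45, 2.78, 4.91, 10.55 and 7.76 in WT, and neighbouring bins had overlapping intervals in both libraries. The named luminal bins rest on 1 to 138 UMIs of Rad51ap1 and 5 to 106 of Brca1.

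Some non-cycling luminal cells carried at least 3 UMIs of 11 S phase genes (among them Cdc6, Ccne1, Cdc45, Dtl and Rrm2) and fewer than 3 of the mitotic set. These were 52 Ehf_KO and 37 WT cells. Brca2 was at 21.2 scaled CPM in them in Ehf_KO (11.3 to 36.2) and 35.04 in WT (16.02 to 66.5). In cycling cells it was at 13.1 in Ehf_KO (10.99 to 15.6), which overlaps, and at 5.69 in WT (3.94 to 7.95), which does not. Rad51ap1 was at 9.77 in Ehf_KO and 42.8 in WT, from 6 and 11 UMIs, and Chek1 at 21.2 and 23.4. In the luminal cells with neither set, Bard1 had 0 UMIs in 439 Ehf_KO and 2 in 2135 WT cells, and Fancd2 had 0 in both. Brca2 had 17 and 10 UMIs there, 4.95 and 0.887 scaled CPM. The bins above and the cells split here took the scale of all cycling or non-cycling luminal cells of their library, not their own. Trp53 and Atm were also higher in the WT cells with S phase genes only than in those with neither set, 89.5 against 27.6 and 50.6 against 24.6. In Ehf_KO they were at 94.4 against 67.6 and 40.7 against 26.2. The part of the scale in the Brca2 values was not tested.

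Related lists are described by counts and medians beside the 1.5-fold shares above. Of S phase genes 19 of 25 were higher in cycling Ehf_KO luminal cells and 22 of 25 in WT, with medians of 1.08 and 1.76. Other genes of homologous recombination and resection had smaller medians, with 9 of 23 higher and 1 lower in Ehf_KO (median 0.38) and 6 of 19 higher and 1 lower in WT (0.16). The helicase Blm had log2 ratios of 2.33 in Ehf_KO and 2.65 in WT. Rad54l, a DNA translocase of the same repair, had 81 UMIs in cycling and 3 in non-cycling Ehf_KO cells. Genes of end joining, which needs no sister strand, had medians of -0.05 and 0.07, with 0 and 1 of 11 higher and 1 of 11 lower in each, and p53 targets had -0.14 and -0.09. The same lists in basal cells had medians of 2.42 and 2.21 for S phase, 0.55 and 0.28 for homologous recombination, and -0.10 and 0.09 for end joining.

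Over the 8 groups, the genes whose log2 levels were most like those of Brca1 were Wdr76, Cdca3, Stil, Snrnp25 and Pole, with Pearson correlations of 0.988 to 0.985 among 10956 genes. Those of Brca2 were Ddx39b, Sap30, Akirin2, Nudc and Atad5 (0.990 to 0.981). These are descriptions over 8 sums that share libraries and depth.

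Between the libraries, Brca2 and Trp53 were higher in Ehf_KO luminal cells, cycling or not. In cycling luminal cells 3 of the 9 genes were at least 1.5-fold higher in Ehf_KO (Brca1, Brca2 and Trp53), where 11.7% of all genes were, and 0 were lower, where 15.1% were. The shares of all genes are over genes with at least 50 UMIs, a minimum that 7 of the 9 met here, the 3 higher ones among them. Brca2 had 133 UMIs in Ehf_KO and 34 in WT, 13.1 against 5.69 scaled CPM, a log2 ratio of 1.21 (0.65 to 1.80). Brca1 was at 12.3 and 8.195 scaled CPM, 0.59 (0.10 to 1.10), at the edge of the 1.5-fold rule. It was 0.12 with each cell weighing the same. With luminal cells holding 3 or more basal marker UMIs left out it was 0.11 (-0.95 to 1.105). That kept 106 of 371 Ehf_KO and 219 of 456 WT cycling luminal cells, so most Ehf_KO cells behind these ratios held such UMIs. In the cells kept, Brca2 was at 1.79 (0.60 to 3.07) and Trp53 at 1.08 (0.63 to 1.535). Trp53 was at 84.0 and 45.8 scaled CPM, 0.87 (0.68 to 1.08). Bard1, Palb2, Rad51ap1, Atm, Chek1 and Fancd2 had log2 ratios of -0.52 to 0.32, each with an interval that included 0. On plain CPM 7 of 9 were at least 1.5-fold higher, where 58.3% of all genes were.

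**Figure D3:**
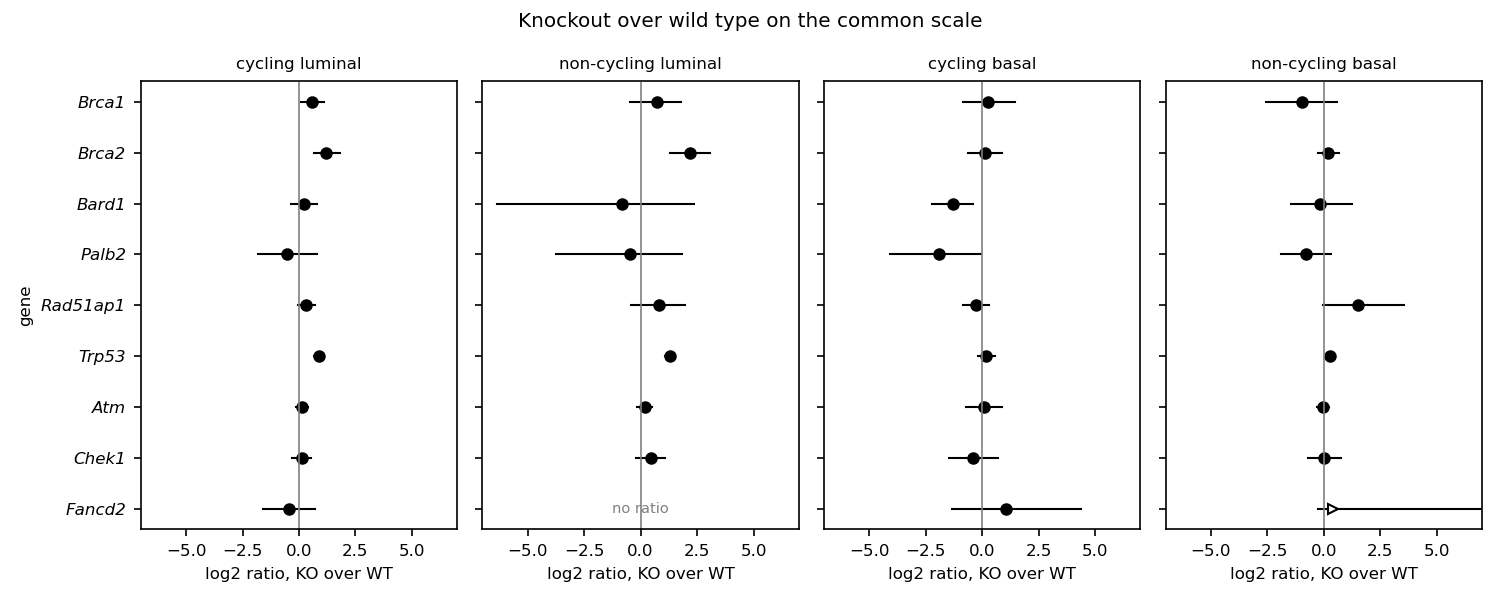
Log2 ratio of scaled CPM, Ehf_KO over WT (x axis), of the 9 genes in 4 groups of cells, with 95% counting intervals. The open triangle is a lower bound from a zero sum in WT, and no ratio was set for Fancd2 in non-cycling luminal cells. Brca2 and Trp53 lie right of 0 in both luminal groups, and Bard1 and Palb2 left of it in cycling basal cells.

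In non-cycling luminal cells 4 of the 8 genes with a ratio were higher in Ehf_KO, where 16.9% of all genes were, and 1 was lower, where 17.1% were. The minimum of 50 UMIs behind those shares was met by 3 of them, of which 1, Trp53, was higher. Brca2 had 30 UMIs in 491 Ehf_KO cells and 19 in 2172 WT cells, 7.41 against 1.65 scaled CPM, a log2 ratio of 2.17 (1.29 to 3.08). Trp53 had 290 and 334 UMIs, 71.65 against 29.0 scaled CPM, a log2 ratio of 1.31 (1.08 to 1.54). The ratios of Brca1 (0.70) and Rad51ap1 (0.80) and that of Bard1 (-0.81, from 1 and 5 UMIs) had intervals that included 0. With S phase cells taken out of the non-cycling cells Brca1 was at -0.36. Basal markers moved with this comparison: 7 of the 9 measured were higher in Ehf_KO, summing to 992 scaled CPM there and 559 in WT. With cells holding 3 or more basal marker UMIs left out, Brca2 was at 2.06 and Trp53 at 1.49.

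Trp53 followed milk protein content within both libraries. In CPM of UMIs outside the 12 milk protein genes, it was at 98.8 in Ehf_KO and 90.5 in WT non-cycling luminal cells with under 5% milk protein UMIs, and at 72.5 and 84.05 in those with 5 to 15%. At 15 to 35% it was at 59.9 and 38.3, and from 35% upward at 26.9 and 15.9. The intervals of the 2 libraries overlapped in all 4 bins, by the least at 15 to 35% (44.2 to 79.4 in Ehf_KO and 32.0 to 45.35 in WT). Such overlap alone does not place the levels of a bin within counting error of each other. Of the non-cycling cells, 245 of 491 in Ehf_KO and 83 of 2172 in WT lay under 5%, and 20 and 1270 lay from 35% upward. Within the luminal progenitor-like cluster 7 (310 Ehf_KO and 75 WT non-cycling cells) the Trp53 ratio turned to -0.55 (-1.03 to -0.04). Within the alveolar-like cluster 5 (114 and 750 cells) it was 0.70 (0.30 to 1.10). The scale was set anew for each cluster, so ratios within a cluster are not on the scale of the whole class. Over the whole class the difference between libraries in Trp53 cannot be told apart from the different make-up of the class. The differences within like cells were not tested.

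Brca2 was sparser. On the same scale it was at 8.40 in Ehf_KO and 0 in WT under 5%, 12.1 and 3.50 at 5 to 15%, 3.74 and 2.88 at 15 to 35%, and 0 and 0.874 above. These rest on 13, 14, 3 and 0 UMIs in Ehf_KO and 0, 2, 10 and 7 in WT, and all 4 pairs of intervals overlapped. Within cluster 5 its log2 ratio was 1.89 and within cluster 7, which had 1 WT UMI, 1.45 with an interval that included 0. Atm, the break-sensing kinase, was at 32.3, 31.1, 27.5 and 37.6 in the Ehf_KO bins and at 10.4, 22.8, 25.3 and 23.2 in WT.

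**Figure D4:**
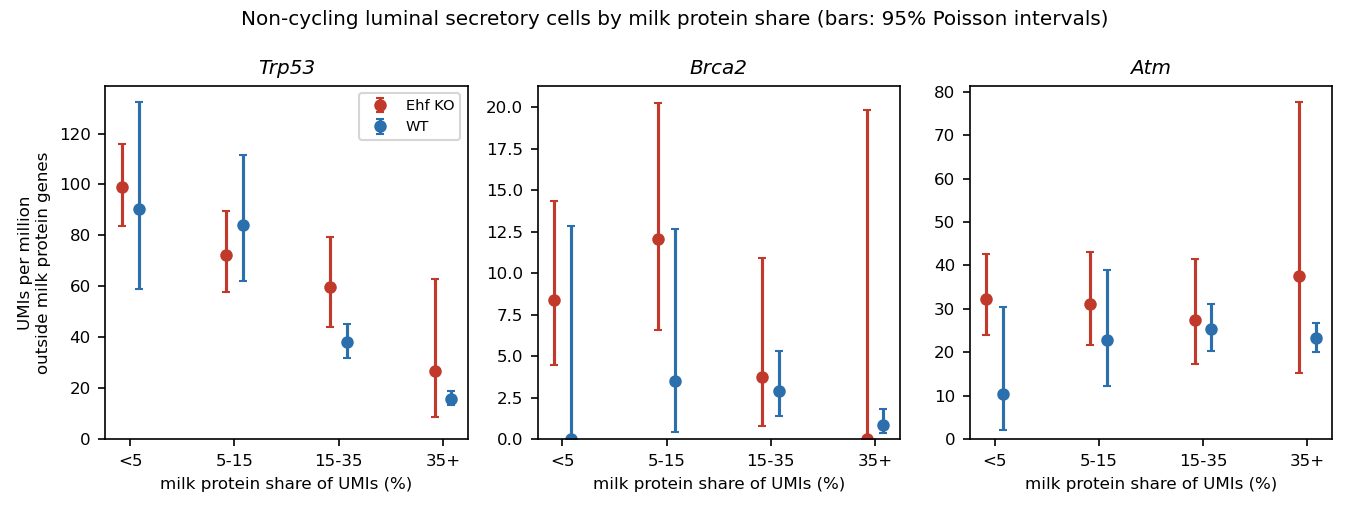
CPM of Trp53, Brca2 and Atm out of UMIs outside milk protein genes (y axis) in non-cycling luminal secretory cells, binned by the milk protein share of their UMIs (x axis), in Ehf_KO (red) and WT (blue), with 95% Poisson intervals. Trp53 is lower in cells with more milk protein UMIs in both libraries, with 98.8 against 26.9 at the 2 ends in Ehf_KO and 90.5 against 15.9 in WT.

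S phase genes differed between the libraries in the same direction as Brca2. In cycling luminal cells 15 of 25 were higher in Ehf_KO and 1 lower, with a median of 0.68, against 1 of 25 mitosis genes higher and a median of 0.17. Of all genes tested in these cells, 11.7% were higher and 15.1% lower. Among the other recombination genes 6 of 25 were higher and 0 lower (median 0.17), led by Rad51d at 6.61 against 3.18 scaled CPM, Fignl1 at 6.81 against 4.18, Rbbp8, the resection factor CtIP, at 22.5 against 13.9, and Nbn at 13.7 against 8.86. In the Fanconi anaemia list 3 of 12 were higher, with Fancm at a log2 ratio of 1.22 and Ube2t, the conjugating enzyme for Fancd2, at 0.69. Of p53 targets 3 of 19 were higher and 2 lower (median -0.08), counts near the shares of all genes, with Gadd45a at 1.19 and Trp53inp1 at -1.14. In non-cycling luminal cells 20 of 23 S phase genes were higher (median 1.21), led by Chaf1b at 2.69, Mcm3 at 2.33 and Mcm5 at 2.17. The recombination list had 2 of 15 higher and 1 lower there (0.20). Both counts of that list lay under the shares of all genes, 16.9% higher and 17.1% lower.

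In cycling basal cells Bard1 and Palb2 were lower in Ehf_KO and 1 gene, Fancd2, was higher, where 8.07% and 7.93% of all genes were. None of these 3 met the minimum of 50 UMIs behind those shares, and of the 4 that did, 0 were higher and 0 lower. Fancd2 had 7 UMIs in Ehf_KO and 2 in WT, a log2 ratio of 1.07 (-1.32 to 4.37). Bard1 had 19 UMIs in Ehf_KO and 28 in WT, 9.92 against 24.4 scaled CPM, a log2 ratio of -1.30 (-2.22 to -0.41). Palb2 had 4 and 9 UMIs, 2.09 against 7.83 scaled CPM and a ratio of -1.91 (-4.06 to -0.07). Mitosis genes were also lower in these Ehf_KO cells, 8 of 25 at 1.5-fold with a median of -0.47, and the mitotic set of the rule summed to 2467 scaled CPM in Ehf_KO and 3503 in WT. The part of that set in the result was not tested. Brca1 (0.26), Brca2 (0.10), Rad51ap1 (-0.28), Trp53 (0.18), Atm (0.06) and Chek1 (-0.40) had intervals that included 0.

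Non-cycling basal cells, the most numerous group, differed little. Trp53 had 1910 UMIs in Ehf_KO and 899 in WT, 70.6 against 57.7 scaled CPM, a log2 ratio of 0.29 (0.18 to 0.41), under the 1.5-fold rule. Rad51ap1 was higher at 1.53, where 4.38% of all genes were, and Brca1 (-0.96) and Palb2 (-0.795) were lower, where 9.13% were, all 3 with intervals that included 0. These had 20 and 4, 8 and 9, and 16 and 16 UMIs in Ehf_KO and WT, under the minimum behind those shares. Of the 4 genes that met it, 0 were higher and 0 lower. Atm was at 12.8 and 13.1 scaled CPM, with a ratio of -0.04 (-0.29 to 0.22), and Chek1 at 1.70 and 1.67.

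**Figure D5:**
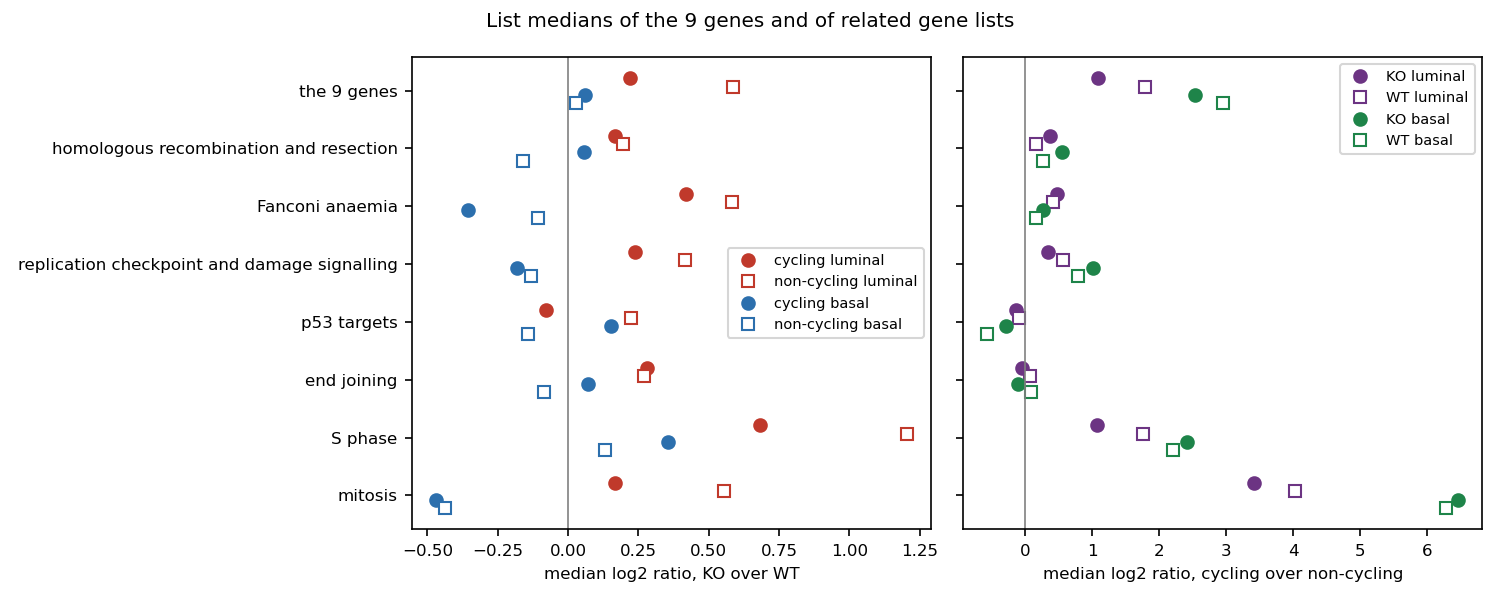
Median log2 ratio (x axes) of the 9 genes and of 7 lists of related genes, Ehf_KO over WT (left, 4 groups of cells) and cycling over non-cycling (right, 4 sets of class and library). The S phase list lies near the 9 genes for cycling over non-cycling, with medians of 1.08 to 2.42, the mitosis list lies above both at 3.42 to 6.47, and end joining lies near 0.

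Hormone-sensing cells, which carry the oestrogen and progesterone receptors, had 2 cycling cells in Ehf_KO and 7 in WT, too few to compare. In the 146 Ehf_KO and 116 WT non-cycling ones Trp53 had 50 and 16 UMIs, 40.35 and 27.5 scaled CPM, and Atm had 14 and 20, 11.3 and 34.4 scaled CPM. Brca1 had 0 and 1 UMIs, Brca2 2 and 0, Chek1 2 and 0, and Bard1, Palb2, Rad51ap1 and Fancd2 had 0 in both.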

How the data were processed

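The authors deposited raw UMI counts (whole numbers, 1 per gene in each barcode) for 1 Ehf_KO and 1 WT library. Per the submitters' processing notes, Seurat 4.0.4 and the GRCm38 (mm10) build were used, with aligner and counter not given in the sources used here. The libraries held 7275 and 11258 barcodes and 40066795 and 48720938 UMIs. The 1314 features with an ID but no symbol held 1.74% and 1.36% of UMIs and stayed in the totals. Deposited features and barcodes files hold names only.

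Barcodes under 500 genes or 1000 UMIs, or with over 20% mitochondrial UMIs, were left out. Scrublet's automatic threshold called 1 of 6654 Ehf_KO cells and so did not work there. The WT threshold of 0.350 was used for both, which left out 35 Ehf_KO (0.526%) and 163 WT cells (1.74%). Cells were clustered in scanpy 1.11.5 (2000 variable genes, 30 components, 20 neighbours, Leiden resolution 1, leidenalg 0.10.2, seed 1), without milk, mitochondrial, ribosomal, cell cycle, member or pathway list genes. Classes were rebuilt from markers, by the highest median log2 fold of at least 0.3 over at least 3 detected markers. Alveolar markers were milk genes. Cluster 8 of the basal class was led by cell cycle genes that were not left out.

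UMIs were summed per class, state and library and scaled by median of ratios over 2419 genes with at least 50 UMIs in each of the 8 groups. Sums have Poisson, ratios conditional binomial and shares Clopper-Pearson intervals at 95%. Genes with at least 50 UMIs over both sides entered the shares of all genes. List members were named by size, up to 4 per list. The values of 1 list member are not reported here. The members, lists and tests were chosen with earlier results of these data known. The steps were tested on simulated data. Alternatives covered scaling, the cycling minimum, thinning, weighting, cell filter, doublets and clustering.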

Additional observations from a re-analysis of the deposited data

Results flagged for a closer look

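Brca1 pointed in opposite directions in non-cycling cells of the 2 classes. Its log2 ratio, Ehf_KO over WT, was 0.70 in luminal secretory cells, from 12 and 21 UMIs, and -0.96 in basal cells, from 8 and 9 UMIs. Both intervals included 0, and the difference between the classes was not tested.

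UMIs of the genes also appeared in the non-epithelial cells (63 in Ehf_KO and 178 in WT), which no comparison used. Over both libraries 7 of the genes had more than 3 UMIs there, 80 UMIs of Trp53, 36 of Atm, 19 of Rad51ap1, 11 of Bard1, 8 of Brca2, 6 of Brca1 and 4 of Chek1, each above the limit of 3 that a count of 0 allows. Palb2 and Fancd2 stayed under it. Of the Rad51ap1 UMIs, 3 lay in the 9 cycling Ehf_KO cells and 12 in the 24 cycling WT cells.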

How the results depend on the processing

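The median log2 ratio of the 9 genes, Ehf_KO over WT, was 0.91 in cycling luminal cells on plain CPM, against 0.22 on the common scale. In non-cycling luminal cells it turned to -0.21 within luminal cluster 7, against 0.59, and Trp53 turned to -0.55 there. That cluster gave 310 Ehf_KO and 75 WT such cells, and the scale was set anew within it. In WT basal cells the cycling over non-cycling median was 1.53 with genes under 50 UMIs left out. Plain CPM shifts all genes by its construction, and the causes of the other moves were not tested. Shares of cycling luminal cells were 49.65% in Ehf_KO and 21.6% in WT when 2 mitotic UMIs sufficed, 37.5% and 14.35% at 5, 22.8% and 5.85% thinned to 2000 UMIs and 11.4% and 2.59% thinned to 1000. Thinning evened total UMIs, those of milk protein genes included. At Leiden resolution 2, where a cluster mostly of Ehf_KO cells stayed unnamed, the Ehf_KO share was 26.4%. Shares of cycling basal cells were 4.67% in Ehf_KO and 3.87% in WT at 2 UMIs, 2.53% and 5.335% thinned to 2000, and 1.88% and 2.50% thinned to 1000. The Ehf_KO share was 2.74% at 5 UMIs, and the WT share was 5.85% in cells with at least 2000 UMIs. The other 110 values of shares and medians stayed within their bands. For a share the band was its counting interval. For a median it ran from the median lower limit to the median upper limit of the single genes, which is wide. In non-cycling luminal cells that band ran from -0.31 to 1.815, so the plain CPM median of 1.345 counted as staying. Of values of single genes, 784 stayed within their counting intervals, 35 moved and 1 reversed.

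The number of genes higher in Ehf_KO ran from 2 to 7 in cycling and 3 to 6 in non-cycling luminal cells over 13 alternatives, within-cluster values aside. The counts of 7 and 6 were those on plain CPM, where 58.3% and 63.3% of all genes were higher. With genes under 50 UMIs left out the number higher was 3 of 7 and 1 of 3, and in basal cells 0 of 4 in each state. For cycling over non-cycling in Ehf_KO luminal cells it ran from 5 to 7. There, with cycling called on cells thinned to 2000 UMIs, Brca1 was at 0.73, Bard1 at 1.275 and Rad51ap1 at 0.77. Brca2 ran from 1.04 to 1.90 in cycling and 1.90 to 2.93 in non-cycling luminal cells. The alternatives with cells holding basal markers, the cluster led by small nuclear RNA genes and milk protein bins were chosen after seeing the data. No value within a cluster was set for cycling luminal cells, since no cluster held 50 of each library. No paired analysis was possible because each genotype had 1 library. Depth limits Palb2 and Fancd2 most, with 79 and 46 UMIs over the 8 groups.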

Other observations

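In cycling luminal secretory cells at least 1 Trp53 UMI was seen in 268 of 371 Ehf_KO and 169 of 456 WT cells. Thinned to 2000 UMIs per cell the shares were 15.5% in Ehf_KO and 4.42% in WT, and 13.4% and 3.18% in non-cycling ones. Thinning evened total UMIs, of which milk protein genes held more in WT, so these shares are not on the common scale. The log2 ratios of Trp53 levels on that scale were 0.87 and 1.31.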
